A study of Mus musculus with 12 samples.

Results

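The 6 wild-type (WT) libraries of the study were compared across 1 step of thymocyte maturation, 3 from DP thymocytes and 3 from CD4 thymocytes, out of 12 libraries in all. They were chosen by their labels alone, as the WT columns of both deposited count tables joined gene by gene. The study sequenced poly(A) RNA of sorted mouse thymus cells to follow an induced knockout (KO) of Satb1, a chromatin organiser of T cells, and its other 6 libraries are used here only in the last comparison. All groups, WT included, are labelled as given tamoxifen, and the labels give each replicate number as a batch, so that DP WT replicate 1 and CD4 WT replicate 1 share batch 1. The sources used here give neither the allele and Cre line of the induced knockout nor the age, sex and strain of the mice, nor the sort gates. Whether the replicates are separate mice is not labelled, and p-values then measure only the spread between these libraries, which may be partly technical. DP and CD4 libraries were also counted in separate tables, so that the cell type and the table cannot be told apart.

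DP thymocytes display the co-receptors CD4 and CD8 together, have stopped dividing or are about to, and rearrange the T cell receptor alpha chain with the recombinase RAG1/RAG2. A cell whose receptor binds MHC class II in the thymic cortex is rescued from death, turns off CD8 and the recombinase, switches on the factor ThPOK (Zbtb7b), and becomes a CD4 single-positive cell. It then moves to the medulla under CCR7, acquires the interleukin 7 receptor and the sphingosine 1-phosphate receptor S1PR1, and leaves the thymus as a naive T cell.

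WT libraries held between 22790504 counts (DP WT replicate 3) and 53390434 (CD4 WT replicate 2), with 2.51% to 3.21% of counts from the mitochondrial chromosome. Levels below are CPM, counts scaled to a library size that was adjusted by TMM (edgeR's trimmed mean of M-values), and 3 values in a row are replicates 1, 2 and 3. A count of 3, taken as the limit of detection, was worth 0.0552 to 0.132 CPM. The first principal component separated the cell types and held 95.8% of the variance of the 1000 most variable genes, and the second, with 2.54%, set replicate 3 apart from the others in both cell types. Libraries of 1 group differed by more than sampling noise (a chi-square of 15.2 to 29.2 for each degree of freedom), so none was counted as a copy of another.

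Transcripts tied to sex differed between the WT libraries. Xist, the non-coding RNA of the inactive X chromosome, stood at 0.833, 0.269 and 469.6 CPM in DP and at 329.9, 280.5 and 394 CPM in CD4, a difference that did not pass the test given below (adjusted p = 0.572) but did with the batch as a block (0.032). The Y-linked gene Ddx3y stood at 125, 108 and 72.96 CPM in DP and 105, 99.1 and 91.7 CPM in CD4. DP WT replicates 1 and 2 therefore almost lacked Xist, while the other 4 WT libraries held Xist and Ddx3y together and may not each stand for a single mouse. Whether they were pools of mice of both sexes is not labelled and was not tested. With DP WT replicate 3 as the only DP library, the counts of changed genes given next became 3628 higher and 3114 lower.

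The markers of each stage were checked against the labels. In DP, the stage genes Rag1, Rag2, Dntt, Ptcra, Cd8a and Cd8b1 were all present and all were lower in CD4. In CD4, Cd4 transcripts were kept at 1152, 1152 and 976 CPM against 1399, 1464 and 1359.5 CPM in DP, and Cd8a was down to 149, 129 and 61.2 CPM. The CD4 libraries thus match their label, with Cd8a and Cd8b1 reads left, whose levels are given below. Counts of cells and RNA per cell are not known, and in such bulk libraries fewer cells of a type and less RNA per cell cannot be told apart.

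**Figure D1:**
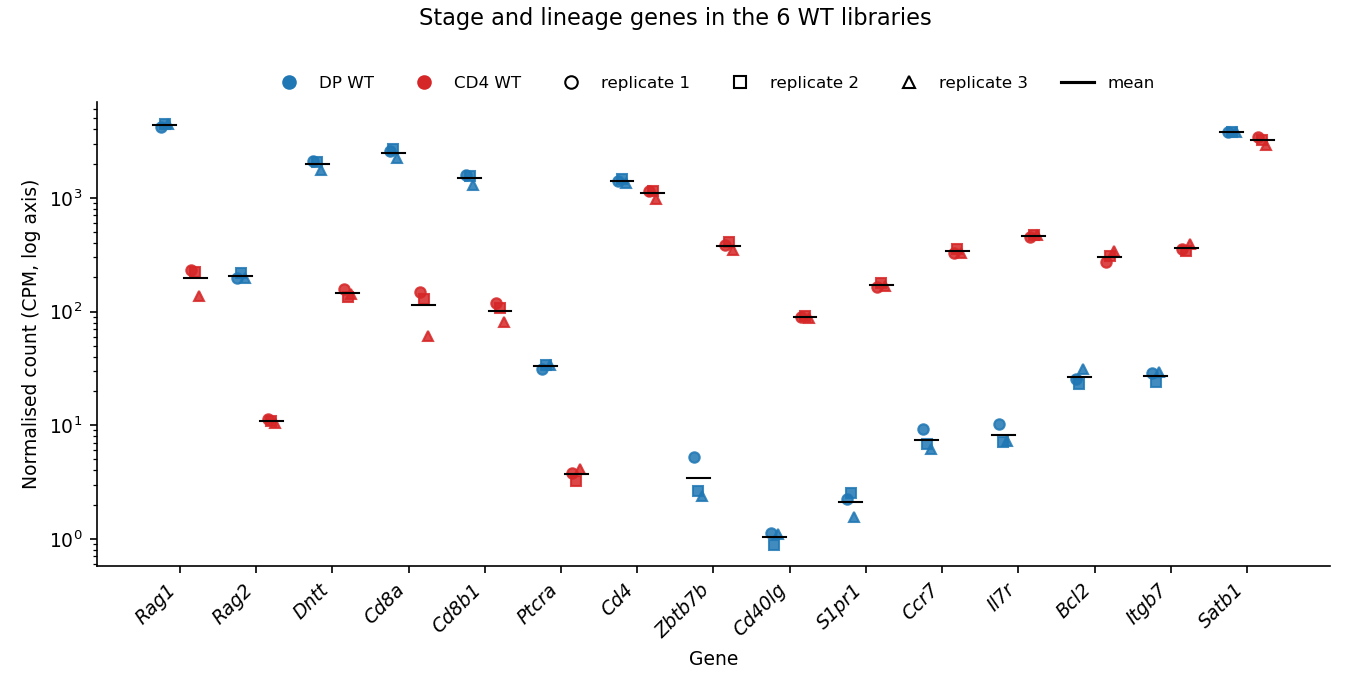
Normalised counts (CPM, log axis) of 15 stage and lineage genes in each WT library, DP in blue and CD4 in red, with the replicate number as the marker shape and the mean as a black bar. For Rag1, Rag2, Dntt, Cd8a, Cd8b1 and Ptcra every DP library lies above every CD4 library, and for Zbtb7b, Cd40lg, S1pr1, Ccr7, Il7r, Bcl2 and Itgb7 every CD4 library lies above every DP library.

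Of 49997 genes in the tables, 17369 passed the low-count filter, and 9557 of these differed between WT CD4 and WT DP at an adjusted p under 0.05 (edgeR quasi-likelihood test, 3 libraries against 3). In CD4, 4855 genes were higher (28% of those tested) and 4702 were lower (27.1%). Change was thus common, and the count of each gene group is to be read against these shares. A gene described as going from one level to another went from DP to CD4, and a value followed by SE in brackets is its log2 fold change, CD4 over DP. For every gene named as having risen or fallen in this test, all DP libraries lay on one side of all CD4 libraries. The exceptions were Dusp5, Nr4a2 and Il1r1, and genes called only with the batch as a block are not covered. A change of at least 2-fold was seen for 2392 higher and 2034 lower genes, and the median log2 fold change of all tested genes was 0.0044. In 9379 of the 9557 changed genes the DP and CD4 libraries did not overlap, and 9519 had the same direction in all 3 batches. A call from 3 libraries against 3 itself favours both, so these counts describe the calls and are no separate support for them. Large rises outnumbered large falls. A log2 fold change of at least 4 was reached by 268 genes that rose, and of -4 or below by 83 that fell. The mean went from under 1 CPM in DP to over 10 in CD4 for 72 genes, and from over 10 to under 1 for 9.

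**Figure D2:**
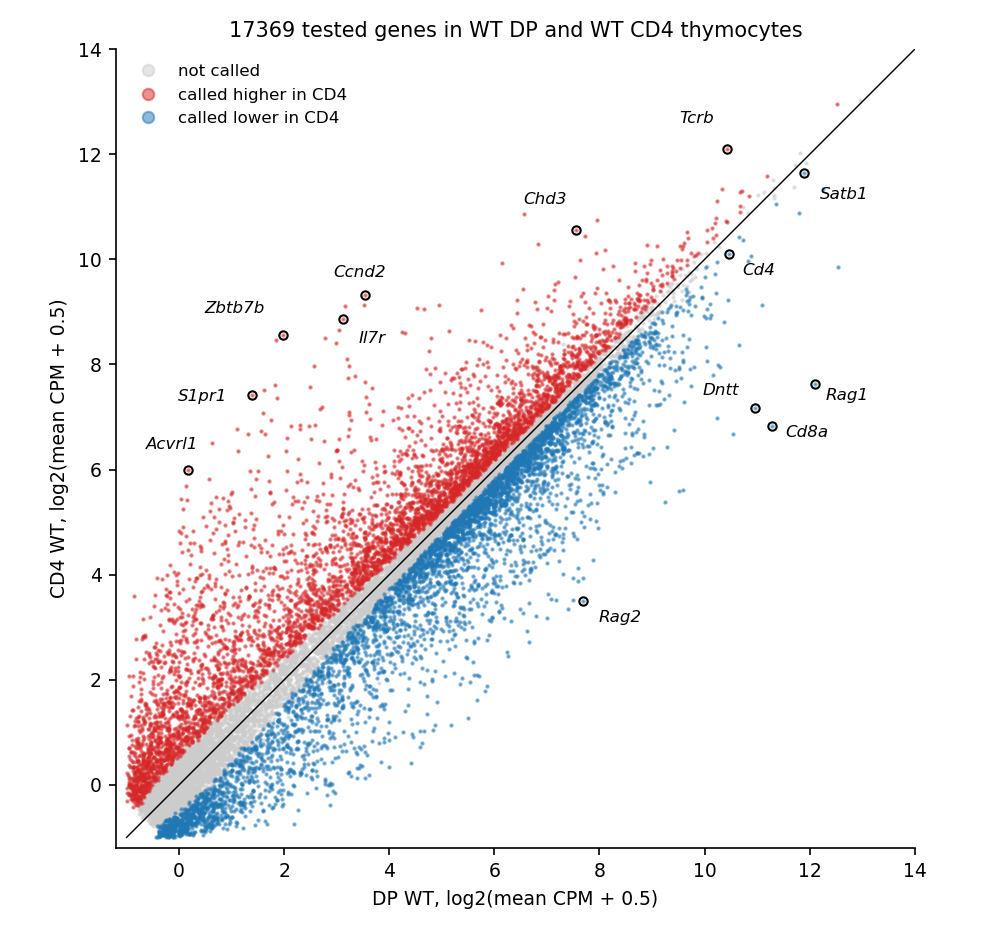
Mean level of each of the 17369 tested genes in DP WT (horizontal) and CD4 WT (vertical), as log2(mean CPM + 0.5), with genes called higher in CD4 in red, lower in blue and not called in grey. Zbtb7b, S1pr1 and Acvrl1 stand far above the diagonal, Rag1, Cd8a, Dntt and Rag2 far below it, and Satb1 and Cd4 just below it.

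Because a few gene groups moved together, the 250 bases before their start sites were read for the sequence that textbook regulators of each group bind. Of the tested genes, 12108 (69.7%) had a promoter in the RefSeq table of build GRCm38.p6. The core of the interferon-stimulated response element (ISRE), GAAA, any 2 bases and GAAA again, was looked for on both strands, as were CCAAT, the box bound by NF-Y, TTTGAA, the cell cycle homology region of G2/M genes, and TTTNNCGC, an E2F site. Interferon-stimulated genes held the ISRE core in 11 of 21 promoters (52.4%), against 2.64% of all 12108. Mitotic genes held CCAAT in 17 of 20 promoters (85%) against 36.5% of all, and TTTGAA in 8 of 20 (40%) against 11.6%. Genes of DNA replication held TTTNNCGC in 8 of 28 (28.6%) against 6.78% of all. Promoters of all genes that rose held the ISRE core a little more often (3.55%) than those of genes that fell (2.51%), and those of genes that fell held TTTNNCGC more often (9.23%) than those of genes that rose (5.07%). Other motifs were nearer the share of all promoters. The E-box CANNTG was in 13 of 16 DP stage genes (81.2%) against 59.1%, the KLF motif CACCC in 15 of 23 maturation genes (65.2%) against 56.4%, and the forkhead motif GTAAACA in 0 of 23 against 2.34%. The interferon-stimulated, mitotic and replication lists hold textbook targets of these regulators. A high share of their motifs was thus likely beforehand and does not depend on these libraries. A match gives letters in a window and says nothing of binding or of why a gene changed.

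Promoters are shown for 3 interferon-stimulated genes that rose, 2 mitotic genes that fell and 2 replication genes that fell, each as the 250 bases that end just before the RefSeq start, 5′ to 3′ on the strand of the gene, in GRCm38.p6, with matches of either strand in capitals.
Ifit1 (chr19:34640639-34640888, + strand): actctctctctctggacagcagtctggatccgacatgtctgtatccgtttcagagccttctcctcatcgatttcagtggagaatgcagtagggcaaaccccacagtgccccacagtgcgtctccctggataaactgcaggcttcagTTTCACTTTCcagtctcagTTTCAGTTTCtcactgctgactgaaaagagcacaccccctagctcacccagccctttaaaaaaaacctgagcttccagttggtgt
Ifit3 (chr19:34583279-34583528, + strand): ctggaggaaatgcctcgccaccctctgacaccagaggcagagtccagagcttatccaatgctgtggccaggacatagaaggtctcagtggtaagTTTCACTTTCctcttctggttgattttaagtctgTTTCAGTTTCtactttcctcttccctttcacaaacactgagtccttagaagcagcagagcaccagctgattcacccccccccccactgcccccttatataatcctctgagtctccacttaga
Isg15 (chr4:156200819-156201068, - strand): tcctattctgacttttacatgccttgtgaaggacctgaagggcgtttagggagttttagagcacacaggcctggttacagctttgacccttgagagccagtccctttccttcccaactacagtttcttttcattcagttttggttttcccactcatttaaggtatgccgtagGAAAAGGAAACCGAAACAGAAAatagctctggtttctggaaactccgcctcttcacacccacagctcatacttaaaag
Ccnb2 (chr9:70421555-70421804, - strand): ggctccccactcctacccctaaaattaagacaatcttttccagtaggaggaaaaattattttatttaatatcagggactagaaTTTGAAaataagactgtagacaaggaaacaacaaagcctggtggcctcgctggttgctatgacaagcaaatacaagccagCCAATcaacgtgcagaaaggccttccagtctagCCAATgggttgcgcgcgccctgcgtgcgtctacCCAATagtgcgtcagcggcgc
Cdc20 (chr4:118437344-118437593, - strand): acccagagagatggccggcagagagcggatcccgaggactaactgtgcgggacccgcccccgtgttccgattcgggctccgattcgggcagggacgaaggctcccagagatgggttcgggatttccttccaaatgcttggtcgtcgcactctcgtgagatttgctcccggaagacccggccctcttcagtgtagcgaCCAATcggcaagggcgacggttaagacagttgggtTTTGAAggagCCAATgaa
Mcm7 (chr5:138171884-138172133, - strand): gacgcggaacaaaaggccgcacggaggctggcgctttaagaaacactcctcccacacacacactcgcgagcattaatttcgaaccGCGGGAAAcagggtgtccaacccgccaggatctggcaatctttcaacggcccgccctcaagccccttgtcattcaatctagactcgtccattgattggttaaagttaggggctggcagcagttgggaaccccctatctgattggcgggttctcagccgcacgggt
Uhrf1 (chr17:56303087-56303336, + strand): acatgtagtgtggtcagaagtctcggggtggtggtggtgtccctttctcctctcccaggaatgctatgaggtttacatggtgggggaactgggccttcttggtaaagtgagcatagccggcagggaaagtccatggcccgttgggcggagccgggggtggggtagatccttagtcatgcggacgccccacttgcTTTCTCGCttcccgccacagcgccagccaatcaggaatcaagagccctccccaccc
Capitals mark the ISRE core in the first 3, CCAAT and TTTGAA in Ccnb2 and Cdc20, and TTTNNCGC in Mcm7 and Uhrf1. Ifit1 and Ifit3 each held 2 matches and Isg15 held 3 that overlap. In Ccnb2 and Cdc20 the match nearest the start ended 16 and 3 bases before it.

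Genes of the DP stage fell together. Of 20 tested genes known for their DP level, 18 fell and none rose, with a median log2 fold change of -3.77. Rag1, the catalytic subunit of the V(D)J recombinase, had 4169, 4471 and 4508 CPM in DP and 233, 222 and 136 CPM in CD4. Its partner Rag2 had 199, 218 and 198 CPM in DP and 11.3, 10.9 and 10.4 CPM in CD4. The groups lay far apart for both genes, with log2 fold changes of -4.47 ± 0.19 (SE; adjusted p = 3.73e-08) and -4.23 ± 0.08 (SE; adjusted p = 1.46e-09). They are neighbours on chromosome 2 in mm10, Rag1 at chr2:101638252-101649532 and Rag2 at chr2:101624712-101632528. Dntt, the polymerase that adds bases at V(D)J joints, went from 2099, 2071 and 1776 CPM to 157, 134 and 142 CPM. Ptcra, whose protein stands in for the alpha chain in the pre-receptor, had 31.5, 34.1 and 33.5 CPM in DP and 3.77, 3.26 and 4.14 CPM in CD4. Less familiar genes fell as far. The cystine transporter Slc7a11 went from 155, 174 and 180.1 CPM to 10.3, 9.92 and 8.58 CPM. The RNA-binding protein gene Arpp21 went from 752, 753 and 689 CPM to 54.04, 44.1 and 45.4 CPM, and the aquaporin gene Aqp11 from 194, 207 and 176 CPM to 15.2, 13.1 and 14.3 CPM. Cd1d1, which presents lipids to NKT cells, had 70.2, 70.1 and 80.6 CPM in DP and 61.5, 66.3 and 70.4 CPM in CD4 and did not pass the test, and Mpp4 did not pass either (adjusted p = 0.0773; 0.0109 with the replicate number as a block).

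Some genes among the largest falls were on no DP list. The semaphorin Sema7a went from 128, 128 and 126 CPM to 10.9, 8.49 and 6.01 CPM, with the lowest level in CD4 replicate 3. The retinal reductase gene Dhrs3 went from 189.6, 191 and 162 CPM to 13.3, 11.1 and 8.28 CPM. Nebl, which encodes an actin-binding protein of muscle, went from 201, 205 and 211 CPM to 15.5, 14.1 and 14.95 CPM. Medag had 51.1, 50.4 and 48.99 CPM in DP and 3.22, 3.09 and 1.41 CPM in CD4, and the acetylcholine receptor subunit Chrna9 had 72.1, 77.7 and 74.1 CPM in DP and 6.82, 5.62 and 3.45 CPM in CD4. The groups did not overlap in any of them. In each of the 15 largest falls among well expressed genes (average log2 CPM of 4 or more), the CD4 mean was between 4.50% and 7.23% of the DP mean. In 12 of these 15 the lowest CD4 library was replicate 3, in which Rag1 stood at 3.11% and Cd8a at 2.45% of the DP mean, against 5.32% and 5.98% in replicate 1. In the 15 largest rises the DP mean was 0.871% to 1.76% of the CD4 mean. Whether DP cells in the CD4 sort set the level at which these falls stopped was not tested.

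Genes that join the DNA breaks made by the recombinase went both ways. Of 11 tested, 6 fell and 4 rose. Xrcc6, which encodes the Ku70 end-binding protein, fell from 497, 499 and 487 CPM to 77.5, 69.9 and 86.4 CPM (-2.67 ± 0.09, SE; adjusted p = 7.78e-09), and the ligase Lig4 from 136, 160.5 and 150.1 CPM to 29.2, 30.8 and 26.9 CPM. The Ku80 gene Xrcc5, whose protein pairs with Ku70, went the other way, from 26.1, 25.2 and 28.9 CPM to 37.6, 35.4 and 36.5 CPM. H2ax, the histone variant that marks breaks, fell from 334, 356 and 308 CPM to 69.3, 57.1 and 74.2 CPM, while Atm and Trp53bp1, which signal from them, rose by log2 fold changes of 1.03 ± 0.09 and 1.33 ± 0.08 (SE; adjusted p = 3.70e-06 and 2.33e-07). Dclre1c, the hairpin-opening nuclease Artemis, fell from 98.9, 95.1 and 103 CPM to 40.7, 41.9 and 33.6 CPM.

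The co-receptors parted. Cd8a, at chr6:71373427-71379171, went from 2581, 2688 and 2225 CPM in DP to 149, 129 and 61.2 CPM in CD4, and its neighbour Cd8b1, at chr6:71322788-71337492, from 1589.8, 1545 and 1311 CPM to 118, 107 and 80.4 CPM. Cd4 fell by 0.36 on the log2 scale (SE 0.08; adjusted p = 0.00315), a call lost with DP WT replicate 3 as the only DP library (adjusted p = 0.0812). The signalling chains of the receptor moved little. Cd3g had 459, 428 and 353 CPM in DP and 537, 524 and 524 CPM in CD4 (adjusted p = 0.00829), and Cd3d, Cd3e and Cd247 did not pass. The row named Tcrb, which stands for the beta chain locus in these tables, rose from 1249, 1343 and 1537 CPM to 3838, 4383 and 4940.2 CPM, the largest gain in mean CPM of any changed gene with a standard symbol. The Tcrb row is counted over its whole span, chr6:40891296-41558371, so its reads need not be those of the beta chain messenger RNA alone. The constant-region rows Trac, Trbc1 and Trbc2 were at 0 in all 6 libraries, so their transcripts are not measured in rows of their own.

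Genes of proximal receptor signalling went both ways. Of 37 tested components, 19 rose and 8 fell, with a median log2 fold change of 0.21. Themis, which tunes weak receptor signals in DP cells, fell from 671, 732 and 837 CPM to 203, 221 and 217 CPM (-1.81 ± 0.09, SE; adjusted p = 9.05e-08). The adaptors Sla and Sla2, which promote receptor turnover, fell by log2 fold changes of -1.41 ± 0.07 and -1.25 ± 0.08 (SE), and the ubiquitin ligase gene Cbl by 1.15 (SE 0.09). Its relative Cblb, the ligase known for restraining mature T cells, rose from 34.5, 31.9 and 42.1 CPM to 107, 117 and 111 CPM. The kinases moved in both directions. Fyn rose from 148, 140.1 and 132 CPM to 603, 584 and 602 CPM (2.09 ± 0.07, SE; adjusted p = 8.63e-09), while Lck went from 2136, 1925 and 1639.8 CPM to 1129, 1048 and 1017 CPM; Lck is listed at more than 1 place in the table and its value is uncertain. Ubash3b, a phosphatase gene that restrains the kinase ZAP70, rose from 3.42, 2.48 and 2.82 CPM to 35.9, 43.6 and 40.3 CPM. Malt1, which links the receptor to NF-kB, rose by a log2 fold change of 1.52 ± 0.09 (SE). Zap70 itself went from 288, 269.5 and 258 CPM to 341, 320.1 and 333 CPM, a small rise (adjusted p = 0.00435).

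Genes switched on by receptor signals were mostly higher in CD4. Of 20 tested, 17 rose and 2 fell, with a median log2 fold change of 2.14. Cd5, a surface gauge of receptor signal strength, went from 211, 184 and 202 CPM to 664, 680.1 and 559 CPM (1.67 ± 0.09, SE; adjusted p = 1.72e-07). Itm2a, a gene induced at positive selection, rose from 82.6, 47.7 and 81.2 CPM to 1004, 959.9 and 977 CPM. Egr3 rose from 5.402, 4.76 and 4.45 CPM to 44.6, 44.3 and 43.6 CPM and Irf4, a factor graded by receptor strength, from 5.24, 5.32 and 6.96 CPM to 67.2, 74.8 and 67.03 CPM. The chemokine receptor Ccr8 went from 0.81, 0.642 and 0.132 CPM to 47.4, 45.98 and 34.8 CPM, the lowest DP value being at the limit of detection. Id3 and Lag3 fell, Id3 from 186, 133 and 126 CPM to 79.4, 84.1 and 83.99 CPM and Lag3 from 15.6, 15.1 and 9.87 CPM to 5.89, 6.68 and 5.06 CPM. Ikzf3 did not pass.

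Several response genes differed between batches as well as between stages. Nr4a1, the orphan receptor Nur77, had 77.4, 58.3 and 249 CPM in DP and 478, 404 and 739 CPM in CD4, and replicate 3 was highest in both. The same replicate was highest in both cell types for Klf2, Cd69, Dusp5, Junb and Fos, but not for Cd5 or Egr1. Dusp5 had 34.96, 26.3 and 93.9 CPM in DP and 92.8, 74.5 and 195 CPM in CD4, so its groups overlapped, and its call (adjusted p = 0.0457) was lost without CD4 replicate 1 (0.0554), CD4 replicate 3 (0.191), DP replicate 1 (0.132) or DP replicate 2 (0.136). Nr4a2 had 5.74, 3.44 and 18.7 CPM in DP and 27.8, 15.3 and 50.998 CPM in CD4, and its call (adjusted p = 0.0227) was lost without CD4 replicate 3 (0.0845), DP replicate 1 (0.0746) or DP replicate 2 (0.0668). Fos, with 89.1, 64.2 and 178 CPM in DP and 214, 108 and 388 CPM in CD4, was higher in CD4 within every batch, and did not pass in the unpaired test (adjusted p = 0.0583), but did with the batch as a block (1.05e-05). Dusp1 was alike, with an adjusted p of 0.0552 unpaired and 0.000205 with the block. Of 21 immediate early and stress genes tested, 10 rose and 2 fell. The part of the batch in these levels was not tested beyond the block.

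**Figure D3:**
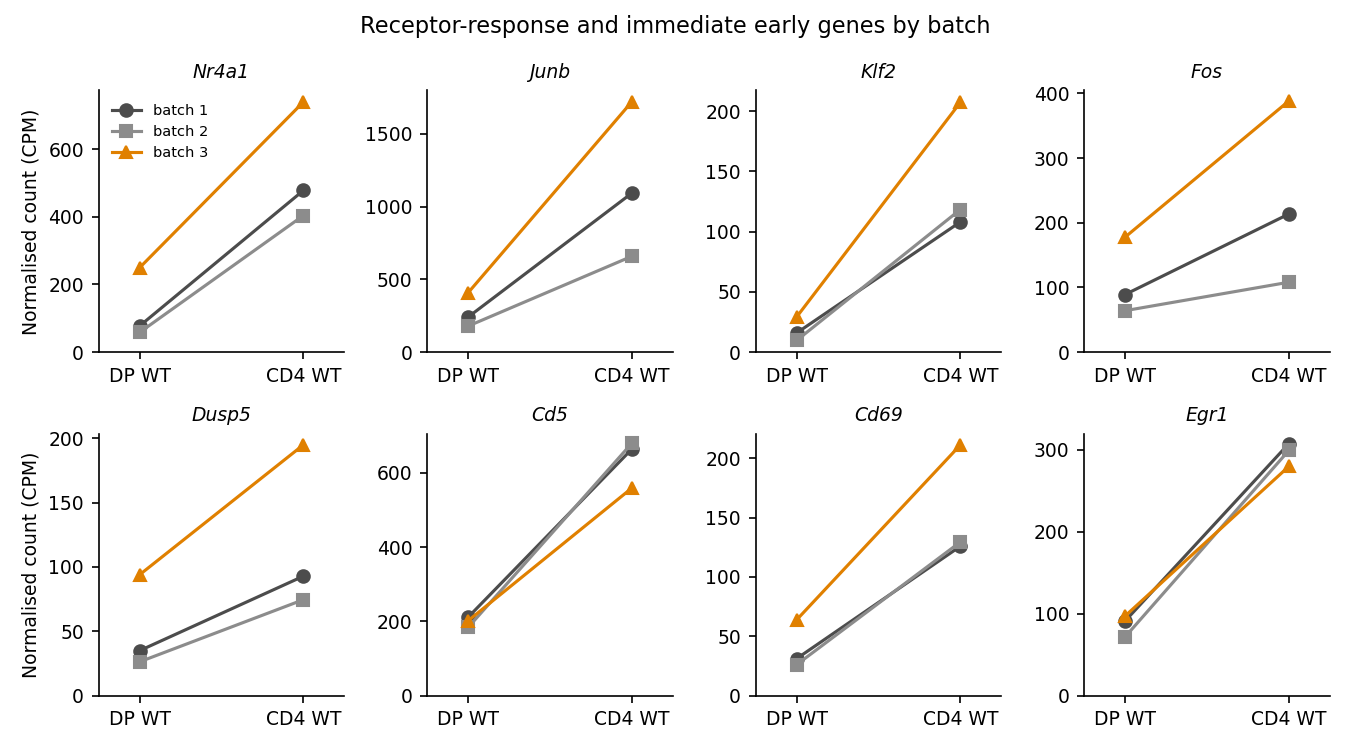
Normalised counts (CPM, axes from 0) of 8 receptor-response and immediate early genes in DP WT and CD4 WT, 1 line per batch. Every line rises from DP to CD4, and batch 3, in orange, is highest at both ends for Nr4a1, Junb, Klf2, Fos, Dusp5 and Cd69, but not for Cd5 or Egr1 in CD4.

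Costimulatory receptors also rose, 13 of 18 tested, with 4 that fell and a median log2 fold change of 1.78. The OX40 gene Tnfrsf4 went from 3.83, 2.32 and 2.203 CPM to 54.7, 55.6 and 54.02 CPM and Btla, an inhibitory receptor, from 4.75, 3.06 and 5.37 CPM to 105, 118 and 104 CPM. Cd226, an activating receptor, rose from 10.4, 7.95 and 10.2 CPM to 79.3, 86.7 and 80.5 CPM. Icos, Ctla4, Cd28 and Cd2 also rose but are each listed at more than 1 place, so their values are uncertain. Sh2d1a, the adaptor SAP, fell from 155, 148 and 142 CPM to 54.7, 54.7 and 58.2 CPM, and its receptors Slamf6 and Slamf1 fell by log2 fold changes of -0.98 ± 0.08 and -0.62 ± 0.09 (SE; adjusted p = 2.04e-06 and 0.000151). Cd244a, another receptor of the SLAM family, had 0.495, 0.145 and 0.0881 CPM in DP, the last under the limit of detection, and 1.04, 0.81 and 0.394 CPM in CD4. Cd244a was called higher with the block (adjusted p = 0.0168) but not unpaired (0.0538). Among genes of calcium signalling, Nfatc3 fell from 706, 775 and 816 CPM to 258, 263 and 291 CPM, while Nfatc2 rose from 18.2, 16.2 and 19.7 CPM to 87.1, 78.5 and 76.6 CPM and Nfatc1 from 80.8, 90.6 and 101 CPM to 164, 152 and 166 CPM. The channel gene Orai1 rose from 6.82, 7.202 and 10.04 CPM to 34.2, 34.1 and 36.7 CPM. In all, 10 of 23 calcium and NFAT genes rose and 6 fell.

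The CD4 lineage programme was visible in its best known genes. Zbtb7b, the ThPOK gene at chr3:89377644-89393673, rose from 5.24, 2.63 and 2.38 CPM to 383, 408 and 348 CPM (6.75 ± 0.25, SE; adjusted p = 1.69e-08). Cd40lg, the ligand with which helper T cells activate B cells, rose from 1.13, 0.89 and 1.101 CPM to 88.96, 91.8 and 88.5 CPM. The DP and CD4 libraries were more than an order of magnitude apart for both. Gata3, needed for the CD4 fate, went from 112, 104 and 112 CPM to 204, 185 and 154 CPM. Tox, a nuclear factor without which few CD4 cells form, rose from 93.4, 86.5 and 114 CPM to 268, 275 and 249 CPM. Lef1 rose from 249, 219 and 269.7 CPM to 768, 718 and 629.6 CPM. Myb fell from 1189.5, 1126 and 1291 CPM to 134, 116 and 125 CPM (-3.26 ± 0.08, SE; adjusted p = 3.21e-09), and Tcf7, which encodes TCF-1, from 5021, 4970.1 and 4609 CPM to 2683, 2592 and 2509.8 CPM. Lef1 and Tcf7, relatives that bind the same DNA motif, thus moved in opposite directions. Satb1, at chr17:51736187-51833290, had 3833, 3779 and 3824 CPM in DP and 3458, 3260.2 and 2942 CPM in CD4 (-0.24 ± 0.07, SE; adjusted p = 0.0184). That small fall was lost without DP replicate 2 (adjusted p = 0.07) and with DP replicate 3 as the only DP library (0.142). Bcl11b did not pass. Of 12 lineage genes tested, 6 rose and 5 fell.

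Most genes of the CD8 and cytotoxic programme rose too. Of 17 tested, 13 rose and 3 fell, namely Cd8a, Cd8b1 and Gzma, with a median log2 fold change of 2.63. The protease gene Ctsw rose from 11.8, 8.67 and 6.34 CPM to 139.7, 129.7 and 141 CPM. The granzyme gene Gzmb rose from 0.473, 0.435 and 0.529 CPM to 9.97, 6.08 and 13.96 CPM. Klrk1, which encodes NKG2D, rose from 0.585, 0.435 and 0.0881 CPM to 10.8, 8.51 and 17.6 CPM, the lowest DP value being under the limit of detection. Ifng, the cytokine gene of T helper 1 and killer cells, rose from 0.18, 0.186 and 0.308 CPM to 4.26, 2.799 and 9.92 CPM. CD4 replicate 3 was highest for all 3. The granzyme gene Gzma went from 25.3, 23.1 and 32.4 CPM to 6.63, 4.88 and 10.3 CPM. Runx3, the factor of the CD8 fate, rose from 16.5, 14.8 and 18.02 CPM to 75.3, 74.1 and 62.6 CPM; it is listed at more than 1 place. Natural killer markers moved alongside, with 5 of 6 tested higher and Gzma lower. Their summed level was 26.1 to 35.2 CPM in DP and 26.7 to 48.3 CPM in CD4. Gzma made up most of that sum in every DP library but the smaller part in every CD4 library. The sum thus does not show the rise of the other 5. Of these, Klrb1c rose from 0.383, 1.06 and 1.45 CPM to 14.8, 7.20 and 17.5 CPM. Klrd1 rose from 0.810, 0.538 and 0.176 CPM to 7.05, 6.50 and 12.6 CPM. The defining markers Ncr1 and Klra8 lay at or under 0.225 CPM in every library. The part of natural killer cells in the rise of cytotoxic genes was not tested.

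Of 107 transcription factors of thymocytes tested, 49 rose and 32 fell, with a median log2 fold change of 0.17. Bach2, a repressor that holds T cells naive, rose from 10.9, 7.12 and 11.1 CPM to 234, 234 and 188 CPM (4.51 ± 0.17, SE; adjusted p = 1.92e-08). The AP-1 member Fosl2 rose from 1.06, 0.931 and 1.28 CPM to 18.7, 22.4 and 21.5 CPM. Id2 rose from 23.005, 15.7 and 20.2 CPM to 123, 131 and 132 CPM, while the E proteins that ID factors bind, Tcf12 and Tcf3, fell by log2 fold changes of -1.55 ± 0.08 and -0.51 ± 0.06 (SE; adjusted p = 1.05e-07 and 3.98e-05). Bcl6 fell from 198, 194 and 203 CPM to 45.3, 42.2 and 39.4 CPM and Gfi1 from 173, 173 and 179 CPM to 39.5, 32.2 and 35.9 CPM. E2f2, an E2F that limits thymocyte division, fell from 596, 656 and 624 CPM to 91.8, 76.1 and 87.7 CPM. Among ETS factors, Ets1 went from 1464, 1559 and 1853 CPM to 2296, 2605 and 2539 CPM, a modest rise (adjusted p = 0.000375), and Ets2, listed at more than 1 place, fell from 767, 767 and 811 CPM to 146, 152 and 171 CPM. Runx1, Ikzf1, Ikzf3 and Fli1 did not pass.

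KLF and FOXO factors, which set quiescence and homing, divided evenly, with 7 of 17 higher and 7 lower. Klf2, the activator of S1pr1, rose from 15.9, 9.68 and 29.1 CPM to 108, 118 and 207 CPM, and Foxo1 from 50.9, 50.8 and 73.8 CPM to 232, 239 and 269.9 CPM. Klf3 fell from 184, 187 and 207 CPM to 84.9, 89.7 and 97.6 CPM and Klf13 from 492, 546 and 627 CPM to 368, 388 and 402 CPM. Notch pathway genes did not move as a block, with 7 of 16 higher and 4 lower. Notch3 fell from 92.1, 101 and 178 CPM to 20.05, 18.1 and 23.1 CPM, Notch1 did not pass, and Lfng, the glycosyltransferase that tunes Notch to its ligands, rose from 4.16, 2.67 and 2.25 CPM to 172, 184 and 226 CPM (5.96 ± 0.20, SE; adjusted p = 1.02e-08). Dtx1, a Notch target, rose from 17.5, 15.4 and 28.1 CPM to 86.7, 73.4 and 101 CPM.

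Maturation and egress genes rose almost without exception. Of 29 tested, 28 rose and none fell, with a median log2 fold change of 3.07. S1pr1, the exit receptor, went from 2.25, 2.52 and 1.54 CPM to 166, 177 and 167 CPM (6.28 ± 0.13, SE; adjusted p = 2.60e-09). Ccr7, which guides cells to the medulla, went from 9.25, 6.77 and 6.21 CPM to 325, 358 and 330.2 CPM, and Il7r, which gives the survival receptor for interleukin 7, from 10.2, 7.18 and 7.27 CPM to 449, 474 and 472 CPM. The integrin chain Itgb7 rose from 28.6, 24.1 and 29.2 CPM to 354, 344 and 391 CPM. Late maturation genes of the Ms4a family rose as well, Ms4a4b from 8.71, 7.72 and 10.3 CPM to 206, 241 and 305 CPM and Ms4a4c from 0.563, 0.372 and 0.352 CPM to 11.4, 17.8 and 19.1 CPM. Tmsb10, which encodes an actin-binding peptide, went from 286, 208 and 243 CPM to 1960.2, 1695 and 1534 CPM, 1 of the 6 largest gains in CPM. Emb, with 154, 173 and 221 CPM in DP and 199, 203 and 229.6 CPM in CD4, did not pass unpaired (adjusted p = 0.178) but did with the block (0.0263).

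Among receptors for chemokines and lipids, 20 of 30 rose and 7 fell (median 2.27). Cxcr4, which holds DP cells in the cortex, fell from 218, 281 and 222 CPM to 35.7, 49.9 and 83.8 CPM, and Ccr9 from 907, 840.1 and 822 CPM to 543, 529 and 404 CPM. Plxnd1, the plexin that lets DP cells move to the medulla, fell from 893, 860.3 and 811 CPM to 221, 194 and 159.6 CPM. On the other side, Gpr183, a receptor for oxysterols, rose from 1.82, 1.51 and 1.06 CPM to 32.3, 40.4 and 41.7 CPM. Cxcr3, a homing receptor of effector cells, rose from 0.765, 0.331 and 0.264 CPM to 14.5, 14.7 and 17.4 CPM, and Gpr18 from 1.15, 1.14 and 0.705 CPM to 35.5, 35.8 and 38.2 CPM. Ptgir, the prostacyclin receptor, had 0.765, 0.29 and 0.617 CPM in DP and 36.3, 43.4 and 33.1 CPM in CD4, and S1pr4 had 27.2, 28.02 and 20.3 CPM in DP and 80.9, 84.04 and 98.9 CPM in CD4. The gut peptide receptor Vipr1, on no list but among the 15 largest rises, went from 1.69, 1.43 and 1.81 CPM to 99.8, 100.4 and 126 CPM.

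Adhesion genes were higher in 14 of 21 and lower in 4. The leukocyte integrin beta chain Itgb2 rose from 321, 297 and 297 CPM to 963, 959 and 909 CPM (1.63 ± 0.07, SE; adjusted p = 2.76e-08) and Cd44, an activation and memory marker, from 7.25, 8.36 and 11.5 CPM to 50.3, 54.2 and 51.6 CPM. Itgb3 went from 8.15, 4.84 and 6.17 CPM to 361, 385 and 344 CPM. Of 23 genes of sialylation and other surface glycosylation, 14 rose and 4 fell. St8sia6 went from 0.81, 0.414 and 0.573 CPM to 43.2, 54.7 and 55.3 CPM. The sialyltransferase gene St3gal1 rose from 44.4, 40.5 and 50.5 CPM to 356, 372 and 333 CPM, and St6gal1 from 52.3, 43.3 and 51.1 CPM to 334, 362 and 350.1 CPM. Cd24a, the heat-stable antigen lost as thymocytes mature, fell from 231, 225 and 244 CPM to 68.5, 66.05 and 72.5 CPM.

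Cytokine receptors rose in 20 of 29 and fell in 4, with a median of 0.96. Il2rb, a chain of the interleukin 2 and 15 receptors, rose from 6.51, 5.32 and 3.61 CPM to 164, 168 and 237 CPM, and Il6ra from 2.39, 1.32 and 1.32 CPM to 71.8, 77.4 and 95.4 CPM. The shared gamma chain Il2rg rose from 277, 266 and 297 CPM to 667, 641 and 656 CPM. Il18r1 rose from 1.19, 1.097 and 1.54 CPM to 40.5, 42.8 and 46.8 CPM and Tgfbr2, a receptor of TGF-beta, from 52.5, 54.9 and 55.2 CPM to 331, 337 and 369 CPM. The 2 chains of the interferon gamma receptor moved apart. Ifngr1 fell from 419, 440.3 and 384 CPM to 106, 98.3 and 110.2 CPM (-1.98 ± 0.08, SE; adjusted p = 2.11e-08), whereas Ifngr2 rose from 44.8, 40.5 and 36.4 CPM to 91.5, 96.3 and 93.2 CPM. Il1r1, near the limit of detection, passed unpaired (adjusted p = 0.0446) but not with the block (0.0695), nor without any of CD4 replicates 1 and 2 or the 3 DP replicates (0.0634 to 0.18). Acvrl1, a receptor of the TGF-beta family on no list, had the largest fitted log2 fold change among well expressed genes with a standard symbol (6.99 ± 0.47, SE), from 0.405, 0.124 and 1.32 CPM to 51.1, 51.2 and 85.96 CPM. Downstream, 13 of 21 JAK, STAT and SOCS genes rose and 1 fell. Jak3, the partner of the gamma chain, went from 33.9, 34.4 and 30.9 CPM to 244, 239 and 201 CPM. Cish, a target and inhibitor of cytokine signals, rose from 1.15, 0.848 and 1.28 CPM to 31.5, 32.8 and 36.5 CPM, whereas Socs1 fell from 159, 125 and 129.8 CPM to 65.9, 51.8 and 63.98 CPM.

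NF-kB genes rose in 15 of 22 and fell in 2, with a median of 0.91. Bcl3, an atypical inhibitor protein of NF-kB, rose from 0.63, 0.393 and 0.617 CPM to 32.3, 30.5 and 25.6 CPM. Relb, of the alternative pathway, rose from 8.17, 5.13 and 7.36 CPM to 59.9, 57.6 and 62.7 CPM. Rel, of the classical pathway, rose from 18.7, 17.7 and 23.7 CPM to 115, 116 and 102 CPM, and its partner Nfkb1 from 102, 98.7 and 108 CPM to 324, 315 and 309 CPM. The subunit gene Rela moved less, from 115, 109 and 108 CPM to 137, 127 and 135 CPM (0.26 ± 0.06, SE; adjusted p = 0.00485).

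Within the BCL2 family the best known survival genes went opposite ways. Bcl2l1, which encodes the BCL-XL on which DP cells rely, fell from 279.6, 295 and 271 CPM to 67.4, 69.3 and 68.6 CPM (-2.04 ± 0.06, SE; adjusted p = 7.29e-09). Bcl2 rose from 25.3, 23.03 and 31.5 CPM to 271, 305 and 337 CPM (3.52 ± 0.13, SE; adjusted p = 1.52e-08). The libraries of both stages lay far apart for each. Bcl2a1b and Bcl2a1d, copies of the A1 gene that can share reads, rose to 13.9, 13.2 and 12.3 CPM and 8.77, 8.36 and 8.905 CPM. Of the killers, Bmf fell from 89.3, 76.98 and 109 CPM to 15.6, 19.8 and 13.6 CPM and Bcl2l11, which encodes BIM, rose from 59.7, 61.6 and 91.2 CPM to 121, 125 and 114 CPM. Over the family, 5 of 16 rose, 5 fell and the median was 0.05. Death receptor and caspase genes were as mixed, with 7 of 20 higher and 7 lower. Casp8 rose from 57.7, 60.3 and 70.6 CPM to 131, 134 and 139 CPM. GIMAP genes, small GTPases of lymphocyte survival that lie side by side at chromosome 6, rose in 7 of 8. Gimap4 went from 13.01, 9.11 and 10.97 CPM to 522, 614 and 557 CPM and Gimap3 from 7.81, 6.001 and 9.38 CPM to 334, 419 and 464 CPM, whereas Gimap1, in the same cluster, had 136, 125 and 129 CPM in DP and 136, 146 and 149 CPM in CD4 and did not pass (adjusted p = 0.0895). Of 19 targets of p53, 5 rose and 5 fell. The counts of the BCL2, death receptor and p53 lists were not far from the shares of all tested genes, 28% higher and 27.1% lower. They are therefore not read as a trait of these families.

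**Figure D4:**
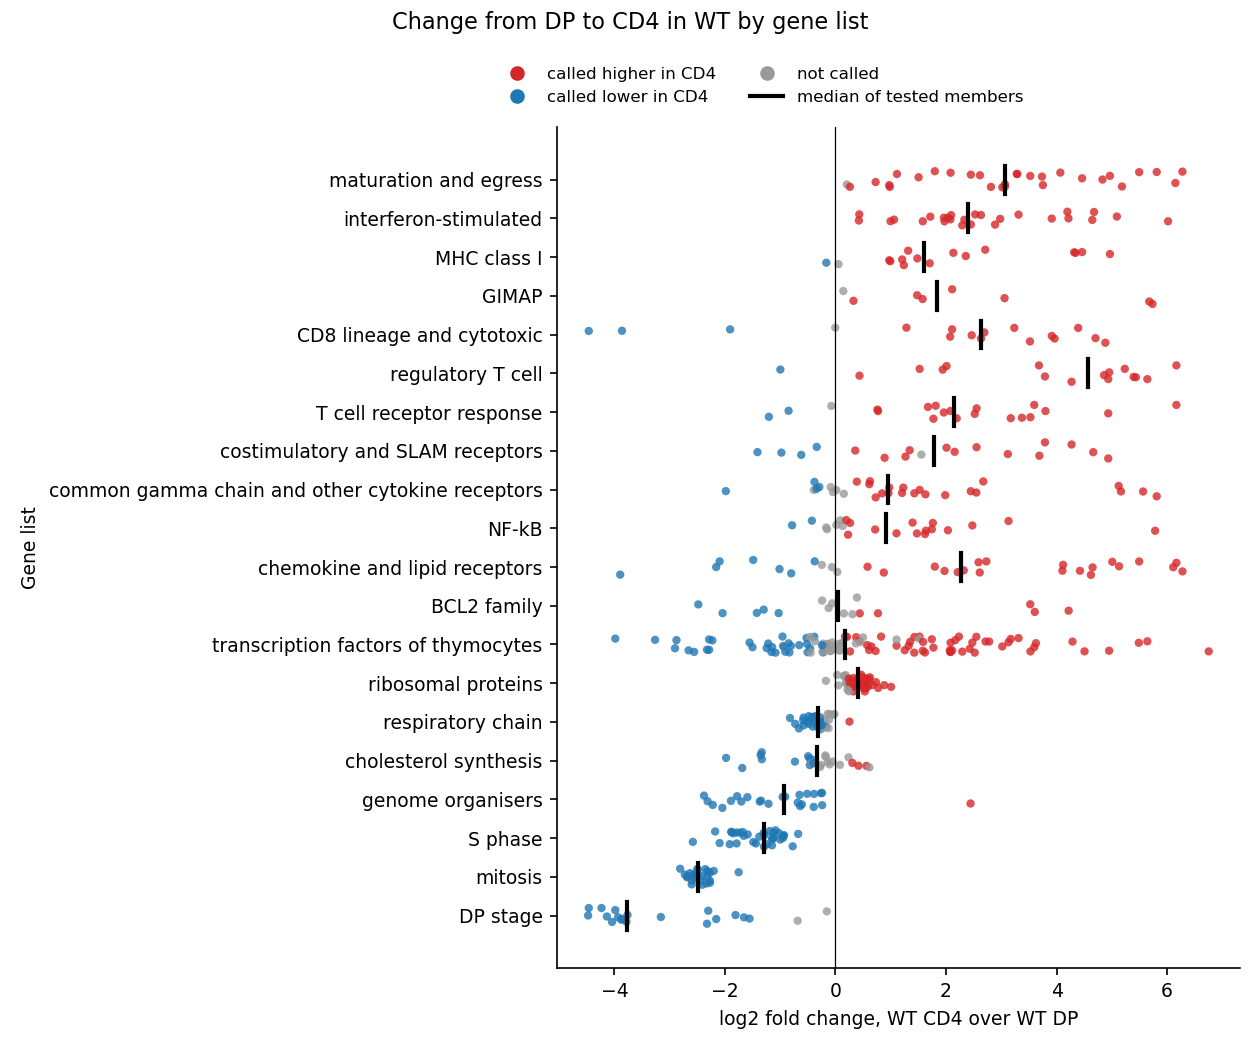
Log2 fold change from WT DP to WT CD4 of each tested member of 20 gene lists (1 dot per gene, red called higher, blue called lower, grey not called), with a black bar at the median of the tested members. Medians run from 4.57 for regulatory T cell genes to -3.77 for DP stage genes; mitosis and S phase lists have no red dot, and the interferon-stimulated list has no blue one.

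Genes of DNA replication and mitosis fell. All 25 mitotic genes and all 34 genes of DNA replication were lower in CD4, with medians of -2.49 and -1.30. Mki67, the proliferation marker, had 1028, 1309 and 1351 CPM in DP and 272, 223 and 268 CPM in CD4 (-2.27 ± 0.12, SE; adjusted p = 1.35e-07). Ccnb2, the mitotic cyclin whose promoter is shown above, fell from 173, 196 and 177 CPM to 25.1, 23.02 and 30.001 CPM, and Cdc20, the activator of the anaphase complex, from 202, 218 and 184 CPM to 34.5, 25.9 and 34.1 CPM. The helicase subunit Mcm7 fell from 359.7, 376 and 379 CPM to 155, 134 and 169.6 CPM, and Uhrf1, which couples replication to DNA methylation, from 422, 485 and 473 CPM to 105, 85.3 and 115 CPM. The ribonucleotide reductase gene Rrm2 fell from 419.6, 486 and 458 CPM to 73.5, 61.5 and 93.5 CPM. Among the cyclins of G1, Ccnd2 rose from 14.6, 10.3 and 8.46 CPM to 615, 697 and 606 CPM, while Ccnd3, the cyclin of thymocyte expansion, fell from 1049.6, 1135 and 969 CPM to 263, 252 and 287 CPM. Among inhibitors, Cdkn2c, which encodes p18, fell from 127, 154 and 137 CPM to 22.6, 18.9 and 23.6 CPM, and Cdkn1b, which encodes p27, from 242, 250.1 and 257 CPM to 163, 156 and 208 CPM. Over the list of D cyclins, their kinases and inhibitors, 3 of 18 rose and 11 fell.

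Genes that organise the genome fell with the cell cycle genes, 23 of 24 (median -0.93). Hmgb2, a DNA-bending protein gene, went from 1129, 1246 and 1076 CPM to 230.2, 185 and 249 CPM. The condensin subunit Ncaph went from 155, 174 and 164 CPM to 32.95, 29.6 and 36.7 CPM, and Lmnb1, a B-type lamin, from 537, 572 and 546 CPM to 149.6, 138 and 159 CPM. Ctcf, the insulator protein that holds chromatin loops, fell from 463, 492 and 502 CPM to 257, 254 and 265 CPM (-0.91 ± 0.06, SE; adjusted p = 9.68e-07), and the cohesin subunit Rad21 from 614, 656 and 673 CPM to 272, 261 and 307 CPM. Lmna, the A-type lamin, was the sole member that rose, from 3.65, 2.94 and 2.56 CPM to 20.01, 16.7 and 13.5 CPM. DNA methylation genes fell in 10 of 15 and rose in 5. The maintenance enzyme gene Dnmt1 fell from 537, 648 and 616 CPM to 316, 294 and 292 CPM, while the de novo enzyme genes Dnmt3a and Dnmt3b rose by log2 fold changes of 0.67 ± 0.08 and 1.91 ± 0.12 (SE), and Tet1, Tet2 and Tet3, which remove the mark, by 1.21 ± 0.09, 1.40 ± 0.12 and 0.86 ± 0.10 (SE). Among chromatin complexes, 13 of 35 rose and 8 fell. Ezh2, a polycomb methyltransferase of dividing cells, fell from 380.4, 389 and 364 CPM to 117, 111 and 122 CPM and Ezh1 rose from 40.2, 39.8 and 37.8 CPM to 87.1, 89.3 and 92.6 CPM. Smarca4 fell from 660.3, 693 and 689.95 CPM to 323, 304 and 275 CPM and Smarca2 rose from 106, 106 and 124 CPM to 248, 235 and 232 CPM, both ATPases of the BAF remodeller. Chd3, of the NuRD complex, rose from 188, 180.5 and 192 CPM to 1568, 1535 and 1399 CPM, while its relative Chd4 did not pass.

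Interferon-stimulated genes rose in all 26 tested, with a median log2 fold change of 2.39. Ifit1, whose promoter is shown above, rose from 2.79, 2.55 and 7.49 CPM to 62.2, 74.5 and 82.1 CPM, and its relative Ifit3 from 2.23, 2.13 and 2.38 CPM to 45.4, 50.97 and 71.7 CPM. Isg15, a ubiquitin-like modifier, rose from 4.19, 3.87 and 9.08 CPM to 33.1, 31.4 and 37.9 CPM. Irf7, the factor that amplifies interferon responses, rose from 11.5, 11.8 and 19.1 CPM to 130.2, 137 and 148 CPM, and Samhd1, a nucleotide hydrolase, from 11.95, 7.59 and 5.73 CPM to 547, 602 and 521 CPM (6.02 ± 0.23, SE; adjusted p = 1.92e-08). DP replicate 3 was the highest DP library for Ifit1 and Isg15, and was still below every CD4 library. Genes for antigen presentation by MHC class I rose in 14 of 16 (median 1.59). B2m, the shared light chain, went from 196, 179 and 219.6 CPM to 930.4, 1005 and 1113 CPM (2.36 ± 0.10, SE; adjusted p = 3.07e-08), and Nlrc5, the activator of class I genes, from 19.7, 15.7 and 22.3 CPM to 392, 395 and 378 CPM. H2-K1 went from 99.9, 85.6 and 95.6 CPM to 1673, 1778 and 2156 CPM, but class I heavy chains are near-identical, so their values are uncertain. Schlafen genes, another family with near-identical copies, were called higher in 7 of 8.

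Genes of regulatory T cells rose in 15 of 16 (median 4.57). Foxp3, their defining factor, went from 0.698, 0.662 and 0.132 CPM to 24.5, 29.8 and 29.5 CPM, the lowest DP value being at the limit of detection. Izumo1r, the folate receptor FR4, went from 3.53, 2.03 and 2.996 CPM to 124, 129 and 115 CPM. Ikzf4, an Ikaros family factor, went from 1.62, 1.35 and 1.498 CPM to 45.1, 52.8 and 40.1 CPM. Nrp1, a surface marker of thymic regulatory T cells, fell from 50.8, 64.7 and 64.9 CPM to 26.8, 31.1 and 32.6 CPM. Genes of innate-like and gamma-delta T cells rose in 10 of 12 and fell in 1. Zbtb16, the factor PLZF of NKT cells, went from 0.72, 0.435 and 0.397 CPM to 32.1, 28.96 and 10.7 CPM, with CD4 replicate 3 lowest. The gamma-delta constant-region rows Trdc and Trgc1 were at 0 in all 6 libraries. The part of regulatory, NKT and other T cells that a CD4+ sort can hold in these levels was not tested. Genes of the DN stage, which precedes DP, rose in 9 of 15 and fell in 2. Kit had 3.42, 2.94 and 2.42 CPM in DP and 8.24, 9.06 and 7.66 CPM in CD4.

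Ribosomal protein genes rose in 33 of 44 and fell in none, with a median of 0.40, and Rplp1 had the largest change, from 547, 508 and 462 CPM to 1006, 977 and 1068 CPM. The elongation factor gene Eef1a1 went from 5948, 5691 and 5914 CPM to 7544, 7538 and 8921 CPM. Nuclear genes of the respiratory chain fell in 26 of 37 and rose in 1 (median -0.32). Cox6a1, a subunit of complex IV, fell from 199, 208 and 159.5 CPM to 118, 105 and 97.4 CPM and Atp5b, of the ATP synthase, from 914, 878 and 846 CPM to 647, 589 and 659 CPM. Of 13 messenger RNAs encoded by the mitochondrial genome, 6 rose and none fell. Glycolytic genes rose in 12 of 23 and fell in 4. The lactate dehydrogenase subunits went apart, Ldhb from 412, 399.9 and 371 CPM to 108, 107 and 92.6 CPM and Ldha from 360.1, 357 and 326 CPM to 527, 498 and 547 CPM. The glucose transporter Slc2a3 rose from 21.5, 21.1 and 22.03 CPM to 75.5, 82.05 and 74.03 CPM. Genes of cholesterol synthesis fell in 12 of 26 and rose in 3. Sqle, an early enzyme of the sterol branch, went from 23.1, 33.4 and 23.6 CPM to 7.58, 8.47 and 8.94 CPM. Of 13 amino acid transporters 6 fell and 4 rose. The leucine transporter Slc43a1 fell from 80.2, 79.4 and 78.4 CPM to 9.13, 7.75 and 7.69 CPM. Among ion channels, 9 of 18 fell and 6 rose. The calcium channel Cacna1e fell from 66.2, 56.4 and 33.04 CPM to 5.68, 4.16 and 1.31 CPM, and P2rx7, the ATP-gated channel, rose from 3.44, 2.401 and 3.701 CPM to 29.01, 29.7 and 25.7 CPM. The ribosomal RNA repeat Rn18s-rs5 had 8899, 1758 and 7229 CPM in DP and 712, 653 and 1415 CPM in CD4; in poly(A) libraries its level also reads how much ribosomal RNA was left, which was not measured otherwise.

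No sum of markers of another cell type exceeded 272 CPM in a WT library. Summed over each library, B cell markers gave 33.0 to 70.8 CPM in DP and 60.2 to 168 CPM in CD4, where 6 of 10 tested were higher and 1, Cd79b, was lower. Most of the CD4 sum came from class II genes. Cd74 had 18.6, 12.6 and 5.46 CPM in DP and 74.7, 65.3 and 31.7 CPM in CD4, with replicate 3 lowest in both, and the immunoglobulin constant-region rows Ighm and Igkc were at 0 in all 6 libraries. Myeloid markers summed to 71.2 to 92.6 CPM in DP and 59.5 to 101 CPM in CD4, with 7 of 14 higher and 2 lower. Stromal and epithelial markers summed to 178 to 184 CPM in DP and 248 to 272 CPM in CD4, the highest of these sums in CD4. They rose in 3 of 8 and fell in 1, and Krt5, Krt8 and Foxn1, which define thymic epithelium, failed the low-count filter. The 5 tested erythroid markers, summed at 26.4 to 196 CPM in DP and 23.1 to 136 CPM in CD4, did not pass, but with the block Hba-a1 (adjusted p = 0.00156), Hba-a2 (0.00112) and Hbb-bs (0.0339) were lower in CD4. The B cell, myeloid and erythroid sums were lowest in replicate 3 of each cell type, whereas the stromal and epithelial sum was highest there. The part of these cells in the results was not tested.

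The same step was then compared between genotypes, to ask whether each change from DP to CD4 differed in Satb1 KO cells. KO levels were scaled within all 12 libraries and WT levels within the 6 WT libraries, so the scales are not identical. Satb1 itself, the targeted gene, had 2497, 2875 and 2456 CPM in DP KO and 1482, 1546 and 1470.3 CPM in CD4 KO, below every WT library of the same cell type but far from absent. Counts are summed over the whole gene and the deleted part is not given, so these levels cannot show how complete the deletion was. The fall of Satb1 from DP to CD4 was larger in KO, at -0.80 against -0.24 in WT (interaction of -0.56 ± 0.10, SE; adjusted p = 0.00131). Over all 12 libraries 5116 of 18431 tested genes (27.8%) passed the edgeR test of that difference. The 30 genes with the largest WT changes were followed. All 30 passed (adjusted p of up to 0.0219), and in each the change was smaller in KO and of the same sign, for 15 rises and 15 falls. These genes were chosen for a large change in the same WT libraries, which favours a smaller value in the other genotype, so the count is given as a description only. Rag2 changed by a log2 fold of -4.23 in WT and -0.97 in KO, with KO libraries at 51.5, 45.6 and 53.7 CPM in DP and 28.6, 20.9 and 27.7 CPM in CD4. For this gene the KO libraries lay below every WT library in DP and above every WT library in CD4. Zbtb7b changed by 6.76 in WT and 3.47 in KO, with 1.00, 7.13 and 0.254 CPM in KO DP and 41.5, 33.0 and 20.1 CPM in KO CD4. KO DP replicate 2 was the highest of its group there, and without it the difference was not called (adjusted p = 0.182). S1pr1 changed by 6.28 in WT and 3.68 in KO. Its KO CD4 libraries, at 171, 154 and 149 CPM, overlapped the WT ones, and its KO DP libraries, at 8.50, 11.6 and 17.1 CPM, lay above all WT DP libraries. Cd8a changed by -4.46 in WT and -3.38 in KO, the smallest difference of the 30, and one not called with DP WT replicate 3 as the only DP WT library (adjusted p = 0.145).

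**Figure D5:**
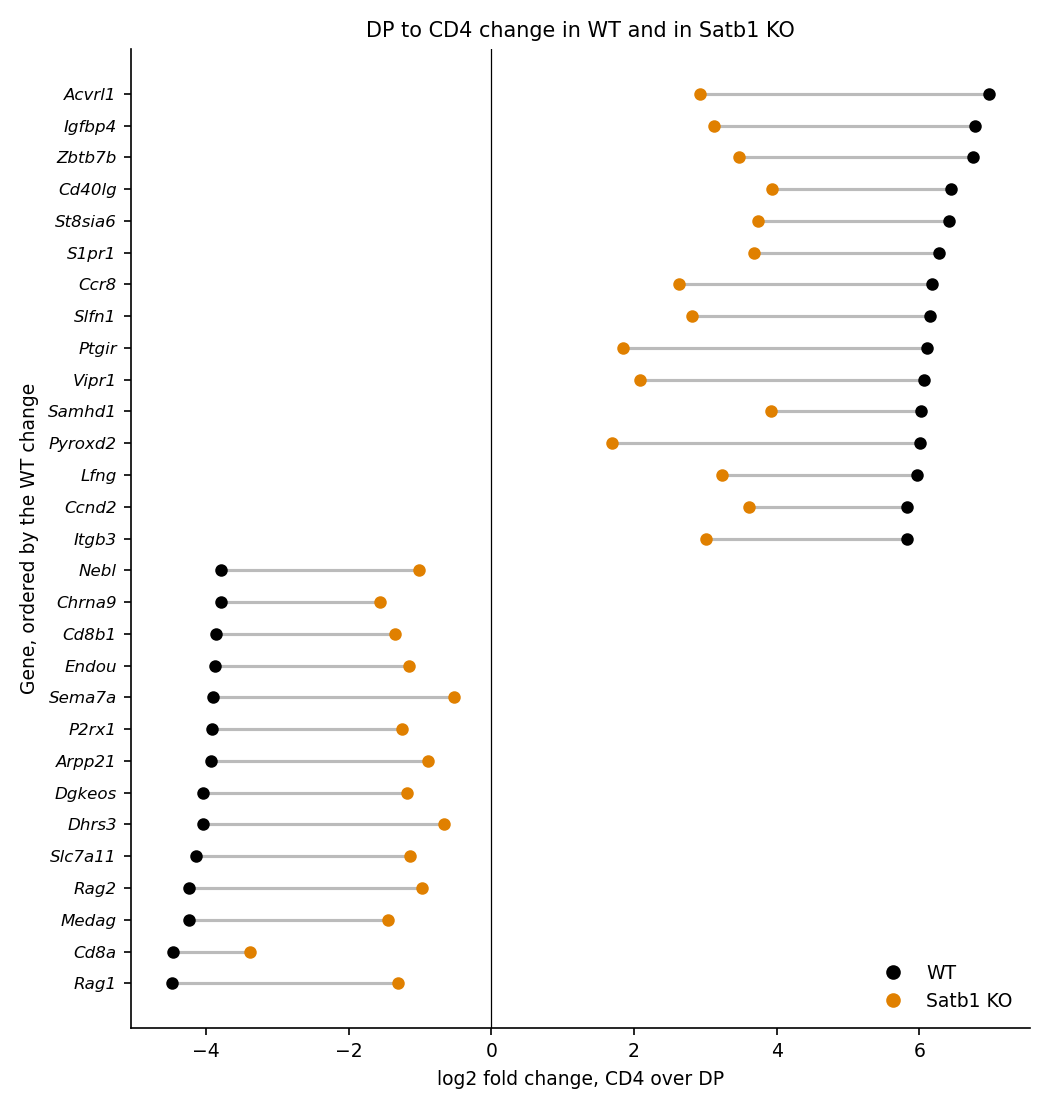
Log2 fold change from DP to CD4 in WT (black) and in Satb1 KO (orange) for the 15 largest rises and all but 1 of the 15 largest falls of WT, from 1 model over 12 libraries, ordered by the WT change. In each gene the KO point lies nearer to 0 than the WT point, from which the genes were chosen; Cd8a has the shortest line.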

How the data were processed

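Whole-number counts per gene were deposited by the authors as 2 tables, 1 for DP and 1 for CD4 libraries, each with chromosome, start, end and strand per gene. The submitters' processing notes name mm10, Subread 1.0.1, DESeq2 and R 4.1.5 without saying which step each served; the sources used here do not give the aligner or the strand setting. The tables were joined by gene name over 49997 genes. Genes that a table lists at more than 1 place or strand, and families of near-identical copies, were counted in ways that can split or add reads, so their values are uncertain.

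Genes passing edgeR's filterByExpr (17369 in WT) were tested with the edgeR quasi-likelihood test (edgeR 4.0.16, limma 3.58.1, R 4.3.3) on TMM-scaled counts, CD4 WT against DP WT with 3 libraries each, Benjamini-Hochberg adjusted over all tested genes at 0.05. The test was checked on simulated counts with far fewer changed genes than were called here, so that check does not cover changes this common. The difference between genotypes was an interaction term over all 12 libraries (18431 genes). Fold changes are CD4 over DP, given as log2 with the standard error (SE). The labels give the replicate number as a batch, so same-numbered libraries share a batch. Deviations of same-numbered libraries correlated at 0.231, 0.159 and 0.275, and the batch was a block in an alternative. DP WT replicates 1 and 2 almost lacked Xist while CD4 WT replicates 1 and 2 held it, so a shared number need not mean shared mice. DESeq2 1.42.0, limma-voom, other scalings and filters, and leaving out each library were the other alternatives. Totals of 22790504 to 53390434 counts set the precision, and a limit of 3 counts was used for detection. Promoters came from RefSeq, and figures were drawn with matplotlib 3.10.9.

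The genes named are Satb1, the 15 largest rises and falls among changed genes whose average log2 CPM was 4 or more, the 6 largest gains and losses in mean CPM, and, from each gene list, up to 5 tested members of smallest adjusted p (10 for transcription factors). Predicted genes were left out of the extremes. A few genes the rule gives are not reported here. Other list members named in the text were chosen after their values were seen. The comparison, the members and the gene lists were chosen with earlier results of these data known. Mitochondrial messenger RNAs were added as a list after the tables were seen.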

Additional observations from a re-analysis of the deposited data

Results flagged for a closer look

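For 30 genes, those with the largest changes from DP to CD4 in WT, the change itself differed between genotypes by the edgeR interaction test (KO change minus WT change, on the log2 scale). The genes were chosen for their WT change and the test shares those WT libraries, so the direction of these differences is a description only.

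Among the rises, the smallest differences were those of Samhd1 at -2.10, Ccnd2 at -2.21, Cd40lg at -2.51, S1pr1 at -2.60 and St8sia6 at -2.67. Lfng stood at -2.74, Itgb3 at -2.82, Zbtb7b at -3.29, Slfn1 at -3.34 and Ccr8 at -3.54. The largest differences among the rises were those of Igfbp4 at -3.65, Vipr1 at -3.98, Acvrl1 at -4.05, Ptgir at -4.26 and Pyroxd2 at -4.32.

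Among the falls, of which 1 gene is left out, Cd8a differed by 1.08, Chrna9 by 2.23, Cd8b1 by 2.50, P2rx1 by 2.66 and Endou by 2.72. Nebl differed by 2.77, Medag by 2.79, Dgkeos by 2.85 and Slc7a11 by 3.00. The largest were those of Arpp21 at 3.04, Rag1 at 3.16, Rag2 at 3.26, Sema7a at 3.37 and Dhrs3 at 3.38. Dgkeos lies antisense to Dgke and the strand setting of the counting is not known, so its reads cannot be told from those of its partner. Dgkeos, P2rx1 and, among the rises, Slfn1 are each listed at more than 1 place, so their values are uncertain.

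DP KO replicate 2 decided 6 of the calls. Without it the adjusted p was 0.325 for Acvrl1 (difference of -2.35), 0.619 for Igfbp4 (-0.74), 0.182 for Zbtb7b (-1.25), 0.0626 for Cd40lg (-1.19), 0.471 for St8sia6 (-0.64) and 0.0626 for Pyroxd2 (-3.25). In that library Igfbp4 stood at 6.38 CPM, against 0.460 and 0.0924 CPM in the other DP KO libraries. Acvrl1 was also not called without DP WT replicate 1 (adjusted p = 0.0513) or DP WT replicate 2 (0.0578). With DP WT replicate 3 as the only DP WT library, the adjusted p was 0.237 for Acvrl1, 0.0759 for Igfbp4, 0.0766 for Zbtb7b, 0.137 for Cd40lg, 0.106 for St8sia6 and 0.145 for Cd8a.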

How the results depend on the processing

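The counts of changed genes, 4855 higher and 4702 lower in CD4, ranged from 4781 to 5346 higher and from 4443 to 4915 lower over other scalings, tests and filters, 1 model over 12 libraries and the replicate block. With the replicate block they were 5055 and 4915, and the genotype difference was called for 6039 genes instead of 5116. Of 710 called genes followed, the block ended the call of 1, Il1r1, and the calls it added among genes named in the report are given there. Leaving out 1 library at a time gave 4252 to 4880 higher, 4100 to 4783 lower and 4341 to 5457 genotype differences. A change of at least 2-fold left 2392 higher and 2034 lower. With DP WT replicate 3, which alone of the DP WT libraries held Xist at the level of the CD4 libraries, as the only DP library (its spread then assumed to be that of the other group), 3114 genes were lower, 3341 differed between genotypes, and 619 of the 710 genes followed kept their direction and call. In that setting 3 genes changed sign: Eif2s3y to 0.14 (adjusted p = 0.693, from -0.83), Ddx3y to 0.44 (0.0154, from -0.05) and the glutamine transporter gene Slc1a5 to 0.00092 (0.995, from -0.30). The causes were not tested. Limma-voom did not call the genotype difference of Acvrl1 (adjusted p = 0.0734), Igfbp4 (0.2), Zbtb7b (0.0726) or St8sia6 (0.113). With 3 libraries a group, small changes of genes near the limit of detection could not be seen.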
